A study of Mus musculus with 9 samples.

Results

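Excitation and inhibition in the brain depend on small families of receptor genes, and 38 such genes were followed here in embryonic mouse forebrain. They were taken by symbol as every AMPA, kainate, delta, metabotropic glutamate, GABA-A, GABA-B and glycine receptor gene with at least 90 counts summed over 9 embryos. NMDA receptor genes were not included, so shares of the receptor signal below refer to these 38 members only. The rule matched 45 of the 55401 genes in the table, and 7 of these stayed under the minimum. The samples were forebrains of female C57BL/6J embryos at E16 to E17, 5 wild-type (WT, Npas3+/+) and 4 heterozygous for a constitutive Npas3 knockout (HET, Npas3+/-). NPAS3 is a transcription factor of the basic helix-loop-helix PAS family, and in HET embryos 1 allele was lost in every tissue, so no cell type was targeted.

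AMPA, kainate and delta receptors are built from glutamate receptor subunits, of which the first 2 kinds form glutamate-gated cation channels. Metabotropic glutamate receptors and GABA-B receptors signal through G proteins instead. GABA-A and glycine receptors are chloride channels, and in immature neurons, where intracellular chloride is high, their opening can depolarize the cell. Subunit composition of GABA-A receptors is known to shift between fetal and adult brain.

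Total counts per embryo were between 42640218 and 62830060, and since PCR copies cannot be told from separate molecules, this depth bounds counting error only. Npas3 itself was at 36.2 ± 4.18 CPM (counts scaled to the library's size after TMM normalization) in WT (SD, n = 5) and 29.5 ± 3.09 in HET (SD, n = 4), a log2 difference of −0.30 with an adjusted p of 0.877 by edgeR. The count over the whole gene did not pass the test, and it does not show from which allele reads came. The samples carry a cell type label of astrocytes, but the tissue is whole forebrain: the summed level of 8 pan-neuronal markers was 5640.4 to 6907.4 CPM, whereas that of 8 astrocyte markers was 463.7 to 640.3 CPM. Markers of the choroid plexus, an epithelium that can be taken along in dissection, summed to 18.9 to 2888.2 CPM in WT and 28.7 to 532.3 CPM in HET, a wide spread within each genotype. In bulk tissue, fewer cells of a type and less RNA per cell cannot be told apart.

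The promoters of the 3 members below are shown because they include an abundant AMPA subunit, the most abundant member per length, and the member with the smallest unadjusted p. Each is the RefSeq window of 250 bases before to 50 after the gene start in GRCm38.p6, 5′ to 3′ on the gene's strand. Capitals mark the E-box, CANNTG, the general motif of basic helix-loop-helix factors, which reads the same on both strands.
Gria2, chr3:80802786-80803085, minus strand: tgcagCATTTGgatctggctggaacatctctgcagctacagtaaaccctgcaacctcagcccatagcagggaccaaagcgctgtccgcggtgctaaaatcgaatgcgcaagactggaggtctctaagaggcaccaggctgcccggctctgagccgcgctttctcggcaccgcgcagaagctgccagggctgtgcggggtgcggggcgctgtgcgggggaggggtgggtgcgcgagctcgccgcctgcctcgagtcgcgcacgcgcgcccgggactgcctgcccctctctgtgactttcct
Gabre, chrX:72274672-72274971, minus strand: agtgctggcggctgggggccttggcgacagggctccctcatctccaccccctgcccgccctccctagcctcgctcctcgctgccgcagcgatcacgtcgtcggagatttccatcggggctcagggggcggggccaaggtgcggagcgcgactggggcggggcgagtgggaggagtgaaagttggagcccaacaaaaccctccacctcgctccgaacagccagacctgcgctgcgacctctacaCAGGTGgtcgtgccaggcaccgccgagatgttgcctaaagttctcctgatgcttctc
Gabbr1, chr17:37045716-37046015, plus strand: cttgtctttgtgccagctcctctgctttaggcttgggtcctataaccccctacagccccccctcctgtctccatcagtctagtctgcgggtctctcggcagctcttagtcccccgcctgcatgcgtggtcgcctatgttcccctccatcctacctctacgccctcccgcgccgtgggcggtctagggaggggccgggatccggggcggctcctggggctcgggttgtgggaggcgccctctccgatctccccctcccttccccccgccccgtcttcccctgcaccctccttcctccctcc
Gria2 and Gabre each held 1 match and Gabbr1 held 0. Of the 38 members, 26 had at least 1 window in the RefSeq table and 14 of these held a match. Over windows, 15 of 33 (45.5%) held one, against 72.3% of all 32851 windows. Member windows were also richer in G and C, with a median of 61% against 52.7%. A match is a description of letters and not a binding site.

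The members spanned a wide range of levels. Divided by the summed length of their annotated exons, WT means ran from 34.9 ± 1.98 CPM per kb for Gabbr1 down to 0.0182 ± 0.0125 for Glra3 (SD, n = 5). Gabbr1, Gria1 (34.5 ± 6.03) and Gria2 (33.6 ± 4.49) headed the order and lay within each other's spread. Grik5 came next at 24.6 ± 2.47 CPM per kb, apart from Gria2 above and from Glra2 (19.7 ± 2.43) below by more than the sum of their SDs. Of the 37 neighbouring pairs in the order, 32 were closer than the sum of their SDs, so the fine order is not resolved. In all, 9 members exceeded 10 CPM per kb and 10 stayed under 1. The members had longer annotated exons than tested genes in general, with a median of 6332 bases against 3930, and a level per kb depends on how much of that length is really transcribed.

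**Figure D1:**
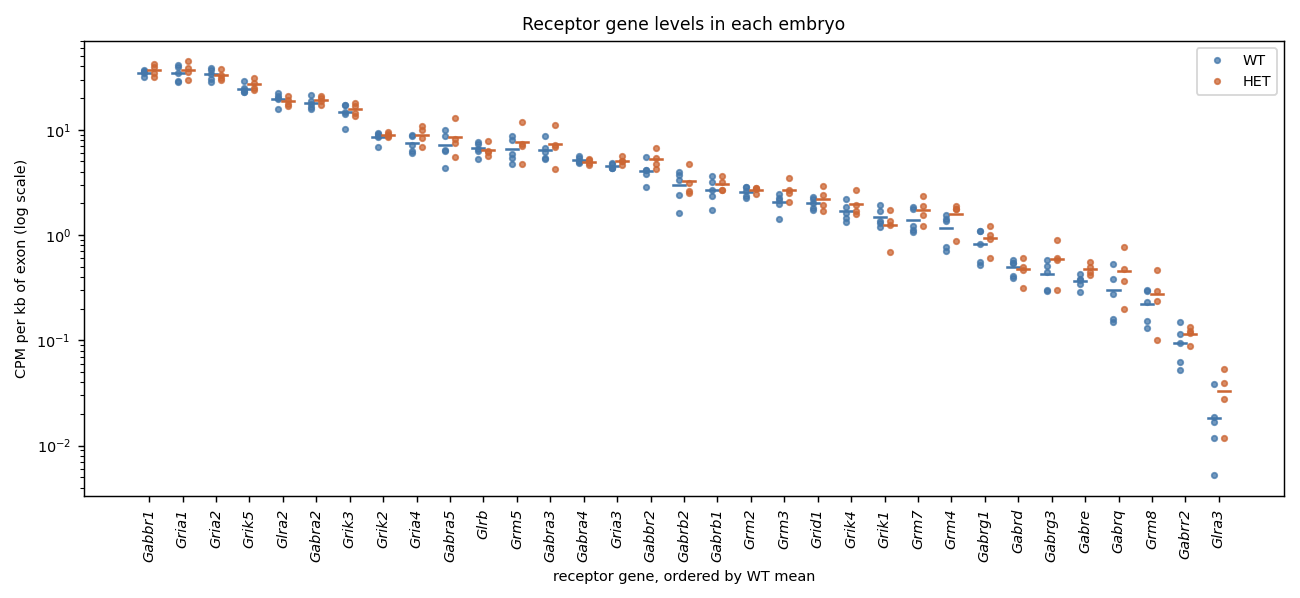
CPM per kb of exon on a log axis for 33 of the receptor genes, ordered by WT mean, with a point for each WT (blue) and HET (orange) embryo and a bar at each group mean. Levels run from above 30 CPM per kb for Gabbr1, Gria1 and Gria2 to under 0.1 for Glra3, and WT and HET points overlap at every gene drawn.

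The 7 matching genes under the minimum were Gabra6, Gabrp, Gabrr1, Gabrr3, Glra1, Glra4 and Grm6. Their summed counts over the 9 embryos were 14, 1, 15, 9, 5, 18 and 24. The nearest members above the minimum were Gabrr2 with 96 counts and Glra3 with 100. Gabra6 encodes an alpha subunit of cerebellar granule cells and Glra1 the alpha subunit of adult spinal glycine receptors, and 6 hindbrain and spinal cord markers were also at or near 0, with at most 3 counts in any embryo.

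HET and WT did not differ at any member past the threshold. Of the 38 members, all of which passed the filter on low counts, 0 were called by edgeR's quasi-likelihood test at an adjusted p of 0.05, with 25 of 17818 tested genes called (0.140%). The smallest adjusted p among the members was 0.908. DESeq2 also called 0 members, beside 0.393% of the genes it gave an adjusted p, and limma-voom called 0 members beside 0.140%. At an unadjusted p under 0.05, 2 members were higher in HET and 0 lower, where 2.32% of tested genes were higher and 3.09% lower. WT and HET values overlapped at all 38 members, whereas 1.85% of tested genes had groups that did not overlap. The 95% interval of the difference lay within a 2-fold change either way for 33 members and within 1.5-fold for 16, so for the others a change of that size is not resolved by 5 and 4 embryos.

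**Figure D2:**
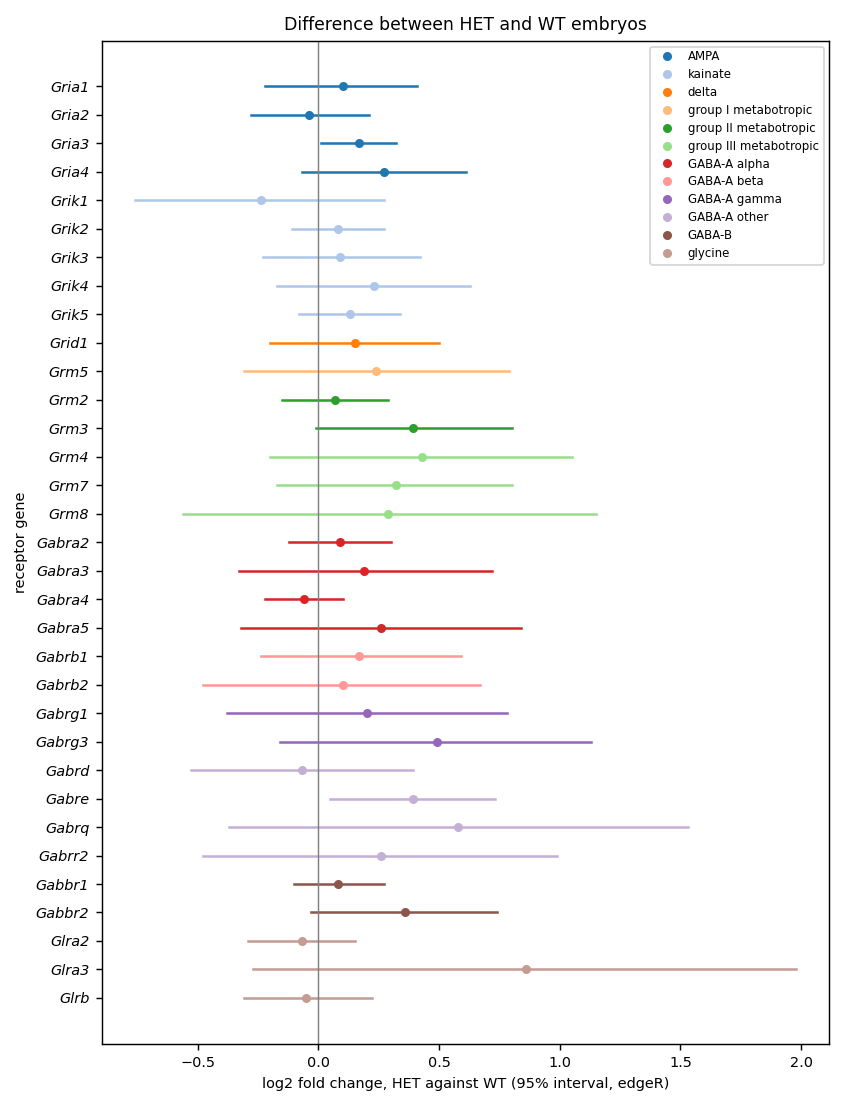
Log2 fold change of HET against WT for 33 of the receptor genes with its 95% interval from edgeR (points and lines), coloured by class. Intervals include 0 at all but Gria3 and Gabre, and most points lie to the right of 0, with Glra3 (0.86) and Gabrq (0.58) the farthest and the least certain.

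Most differences were small and had a positive sign. Of the 38 members 31 (81.6%) had a higher fitted level in HET, against 48.5% of tested genes, and their median log2 fold change was 0.18 against −0.005. The size of this lean varied with the embryos included. HET embryo 7 was the highest of the 9 embryos at 28 members, and WT embryo 16 was the lowest at 18. Without HET 7 the count fell to 23 and the median to 0.04, without WT 16 they were 29 and 0.12, and without both they were 16 and −0.04. The fit without both was added after seeing the data. Since these were the HET embryo highest and the WT embryo lowest on average, leaving them out had to narrow the difference. Other omissions widened it: without HET 5 the values were 35 and 0.28, and without WT 15 they were 34 and 0.22.

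Centred on each gene's mean over the 9 embryos, the members' mean log2 CPM was −0.19, 0.16, −0.38, 0.15 and −0.18 in WT embryos 5, 15, 16, 41 and 43. In HET embryos 5, 6, 7 and 24 it was −0.29, 0.11, 0.48 and 0.13. Many receptor genes shared these shifts, with HET 7 the highest embryo at 28 of 38 members. Others did not, as Grik2 was highest in HET 5 and Grm2 in WT 5. These embryo means spread more within a genotype (SD of 0.24 in WT and 0.31 in HET) than the genotype means of −0.09 and 0.11 lay apart. Pan-neuronal markers summed highest in HET 7 (6907.4 CPM) and lowest in WT 16 (5640.4 CPM). Genes of this list differed: Dcx was lowest in WT 16 (1140.3 CPM, against 1686.1 in HET 7), whereas Tubb3 was highest there (1885.3 against 1802.3). Neuronal subtype markers had another order: the excitatory cortical list was highest in WT 16 (2367.4 CPM, against 1913.9 in HET 7), and the GABAergic list was highest in WT 5 (567.3 CPM) and lowest in HET 5 (229.8 CPM). Radial glia markers, which mark neural progenitors, summed lowest in HET 7 (2038.2 CPM) and reached 2866.8 CPM in WT 16. The part of cell composition in the receptor levels was not tested. Outside the receptors, the 5 tested genes whose log2 CPM over the 9 embryos was most like this mean were Zfp641, Mdga2, Rimbp2, Pex5l and Lonrf2, with Pearson's r of 0.98 to 0.993 over 9 embryos.

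**Figure D3:**
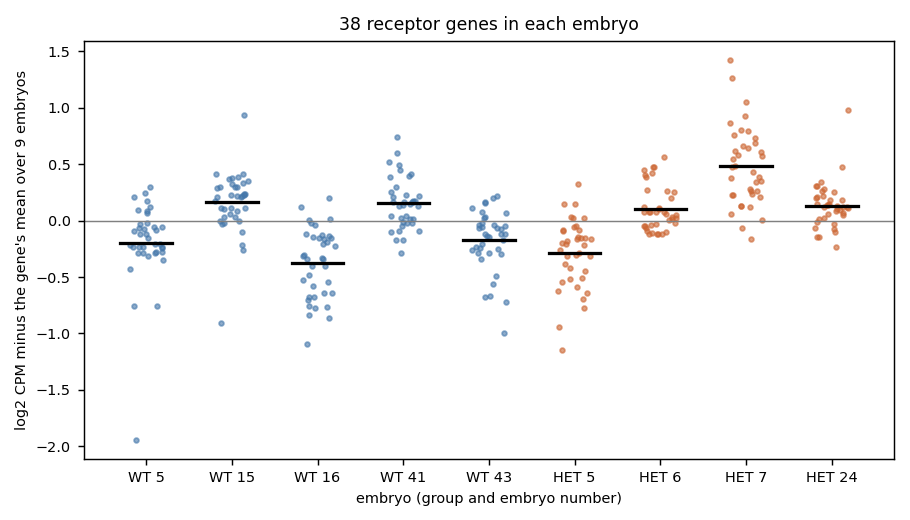
Each point is 1 of the 38 receptor genes in 1 embryo, as log2 CPM minus that gene's mean over 9 embryos, and the black bar is the mean over genes. HET 7 sits highest with a mean of 0.48 and WT 16 lowest with −0.38, while the other 7 embryos of both genotypes lie between −0.29 and 0.16.

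Among the glutamate receptor members, AMPA subunits had the largest summed level in WT, at 80.1 CPM per kb against 51.0 for kainate subunits. Gria1 was at 174.1, 250.8, 171.8, 240.0 and 207.2 CPM in WT embryos 5, 15, 16, 41 and 43, and at 177.8, 213.1, 269.3 and 233.6 CPM in HET embryos 5, 6, 7 and 24. Only HET 7 exceeded the highest WT embryo, and the log2 difference was 0.10 ± 0.14 (SE; edgeR, adjusted p = 0.939). Gria2, whose subunit keeps AMPA channels nearly impermeable to calcium, had WT values of 437.1 to 603.2 CPM and HET values of 458.0 to 593.0, with a log2 difference of −0.04 and a 95% interval of −0.28 to 0.21. Gria3 had 43.1, 48.0, 42.3, 46.3 and 43.2 CPM in WT and 45.4, 49.5, 55.0 and 50.2 CPM in HET, in the same embryo order. At Gria3 3 of 4 HET embryos lay above every WT embryo and HET 5 lay among them. Its log2 difference of 0.17 ± 0.07 had an unadjusted p of 0.0351 and an adjusted p of 0.908 by edgeR, and was 0.10 without WT 16 and HET 7. Gria4 was at 47.0 ± 8.59 CPM in WT and 56.6 ± 10.8 in HET.

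Shares within a family remove what moves all its members together. Of the AMPA signal per kb, Gria1 made up 43% ± 1.19 in WT and 44.0% ± 1.46 in HET, and Gria2 42.1% ± 1.14 and 39.3% ± 1.75. Gria4 made up 9.28%, 9.57%, 8.76%, 9.64% and 9.03% in WT embryos 5, 15, 16, 41 and 43. In HET embryos 5, 6, 7 and 24 it made up 9.78%, 10.6%, 10.9% and 11.4%. The Gria4 share was thus higher in every HET embryo than in any WT embryo, with HET 5 only just above WT 41. Of 28 such shares over 9 families, that of Gria4 was the only 1 whose groups did not overlap, and it was singled out after its values were seen and not tested. Without division by length the Gria2 share in WT was 63.6%, since its annotated exons span 15548 bases. The Gria4 groups of the same counts then only just did not overlap, with WT 41 at 5.97% and HET 5 at 5.99%.

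Per kb, kainate receptor subunits were led by Grik5, which encodes a high-affinity subunit that needs a low-affinity partner to form a channel. Without division by length, Grik3 (33.4% ± 3.89 of kainate CPM in WT) and Grik5 (32.7% ± 3.7) were near level. Grik5 was at 148.7, 123.1, 118.7, 117.3 and 128.8 CPM in WT and 124.1, 128.6, 144.1 and 160.5 CPM in HET, in the order given for Gria3. Only HET 24 exceeded the WT range, and the log2 difference was 0.13 ± 0.09 (SE; edgeR, adjusted p = 0.911). Of the kainate signal per kb in WT, Grik5 made up 48.4% ± 4.46, Grik3 28.6% ± 3.92 and Grik2 16.7% ± 0.339. Grik1 and Grik4 together held the small remainder, and Grik1 had the lowest fitted difference of all members at −0.24, with a 95% interval of −0.76 to 0.27. Grik4 was at 10.1 ± 1.98 CPM in WT and 11.8 ± 3.0 in HET, and Grik2 and Grik3 differed by 0.08 and 0.09 on the log2 scale. The delta receptor gene Grid1 had 11.9, 13.1, 10.7, 13.7 and 10.3 CPM in WT and 10, 11.4, 17.3 and 14.3 CPM in HET, a log2 difference of 0.15 ± 0.16 (SE; edgeR, adjusted p = 0.922).

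The metabotropic receptors were led by Grm5, a group I receptor coupled to phospholipase C. Grm5 was at 60.0, 89.8, 48.3, 82.6 and 54.7 CPM in WT and 48.8, 75.6, 120.6 and 71.7 CPM in HET. These values varied widely within each genotype, and only HET 7 lay outside the WT range (log2 difference 0.24 ± 0.25, SE; edgeR, adjusted p = 0.919). In group II, whose receptors lower cyclic AMP, Grm2 had 14.0, 12.8, 11.0, 11.4 and 13.9 CPM in WT and 12.1, 13.8, 13.4 and 13.7 CPM in HET. Its log2 difference was 0.07 ± 0.10 (SE; edgeR, adjusted p = 0.939), and 9.6% of its exonic bases overlap another gene. Grm3 was at 6.23 ± 1.20 CPM in WT and 8.19 ± 1.81 in HET, with a log2 difference of 0.39 and an interval of −0.01 to 0.80. In group III, receptors largely found on presynaptic terminals, Grm7 had 6.59, 10.9, 6.33, 10.3 and 7.20 CPM in WT and 7.12, 9.06, 13.8 and 11.2 CPM in HET. The Grm7 groups overlapped, with HET 7 and HET 24 above every WT embryo (log2 difference 0.32 ± 0.22, SE; edgeR, adjusted p = 0.911). Grm4 was at 6.97 ± 2.37 CPM in WT and 9.37 ± 2.81 in HET, and Grm8, the lowest metabotropic member per kb, at 2.21 ± 0.791 and 2.72 ± 1.49. All 7 metabotropic members had a positive sign, with a median of 0.29, and their share of the receptor signal per kb was 5.12% ± 0.592 in WT and 5.70% ± 0.768 in HET.

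Among GABA-A receptor genes, Gabra2 was the most abundant alpha subunit gene per kb in both genotypes. Gabra2 was at 120.1, 165.2, 127.0, 143.2 and 135.4 CPM in WT and 143.3, 129.9, 154.6 and 160.3 CPM in HET. All 4 HET embryos lay within the WT range (log2 difference 0.09 ± 0.10, SE; edgeR, adjusted p = 0.922). Of the alpha signal per kb, Gabra2 made up 48.1% ± 2.19 in WT, Gabra5 18.6% ± 3.15, Gabra3 17.1% ± 2.67 and Gabra4 13.9% ± 1.90. In HET the Gabra2 share was 47.5% ± 6.39. Gabra4 had a narrow interval, with a log2 difference of −0.06 between −0.22 and 0.10. Gabrb1 was at 37.4 ± 10.1 CPM in WT and 42.2 ± 6.58 in HET, and Gabrb2 at 19.2 ± 6.19 and 20.5 ± 6.47. Gabrg3, at 5.06 ± 1.49 CPM in WT and 7.10 ± 2.86 in HET, had a log2 difference of 0.49 with an interval of −0.16 to 1.13, and Gabrg1 was at 6.41 ± 2.17 and 7.37 ± 1.98 CPM.

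The remaining GABA-A members, Gabrd, Gabre, Gabrq and Gabrr2, were all under 1 CPM per kb. Gabrd, an extrasynaptic subunit, had 1.18, 1.68, 1.57, 1.12 and 1.57 CPM in WT and 0.909, 1.35, 1.74 and 1.42 CPM in HET (log2 difference −0.07 ± 0.21, SE; edgeR, adjusted p = 0.968). Gabre, which encodes the epsilon subunit, had 2.04, 1.61, 1.78, 1.81 and 1.37 CPM in WT and 1.97, 2.63, 2.34 and 2.09 CPM in HET. At Gabre 3 of 4 HET embryos lay above every WT embryo, and HET 5 lay just under WT 5. Its log2 difference of 0.39 ± 0.15 had an unadjusted p of 0.0293 and an adjusted p of 0.908 by edgeR, on 62 to 115 counts per embryo. Gabrq, the theta subunit gene, was at 1.61 ± 0.866 CPM in WT and 2.43 ± 1.29 in HET, with an interval of −0.37 to 1.53. Gabrr2, a rho subunit gene best known from retina, had 5 to 20 counts per embryo.

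Many GABA-A genes lie in clusters, and neighbours in 1 cluster differed widely in level. On chromosome 5, Gabrg1, Gabra2, Gabra4 and Gabrb1 span 1397991 bases in GRCm38, and in WT they ran from 0.815 CPM per kb at Gabrg1 to 18.1 at Gabra2. On chromosome 7, Gabra5 at 7.13 CPM per kb lies near Gabrg3 at 0.424. Gabre, Gabra3 and Gabrq lie together on the X chromosome, where Gabra3 led at 6.45 CPM per kb.

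GABA-B receptors need both of their subunits, of which GABBR1 binds the ligand and GABBR2 couples to the G protein. Gabbr1 was at 272.3, 287.9, 247.3, 279.5 and 266.5 CPM in WT and 248.1, 267.5, 323.9 and 306.2 CPM in HET. HET 7 and HET 24 exceeded all WT embryos and HET 5 lay near the lowest (log2 difference 0.08 ± 0.08, SE; edgeR, adjusted p = 0.915). Gabbr2 was at 27.4 ± 6.30 CPM in WT and 35.1 ± 7.01 in HET. Per kb, Gabbr1 exceeded Gabbr2 by 8.80 ± 1.58 times in WT and 7.12 ± 0.582 times in HET, with ranges of 6.75 to 11.1 and 6.26 to 7.56 that overlapped.

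Glycine receptor signal came from Glra2, the fetal alpha subunit, and from Glrb, the beta subunit that anchors the receptor to gephyrin. Glra2 was at 49.3, 69.7, 65.4, 62.1 and 63.2 CPM in WT and 53.2, 55.8, 65.6 and 60.7 CPM in HET. All 4 HET values lay within the WT range (log2 difference −0.07 ± 0.10, SE; edgeR, adjusted p = 0.935). Among the alpha genes Glra2 made up 99.8% ± 0.118 of the signal per kb in WT and 99.7% ± 0.188 in HET. Glrb had a WT mean of 31.0 ± 4.25 CPM and a HET mean of 30.0 ± 4.36. Glra3 had only 2 to 24 counts per embryo, so its log2 difference of 0.86 had an interval of −0.27 to 1.98. The glycine family made up 9.09% ± 1.03 of the receptor signal per kb in WT and 8.15% ± 0.365 in HET, and 2 of its 3 members had a negative sign.

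**Figure D4:**
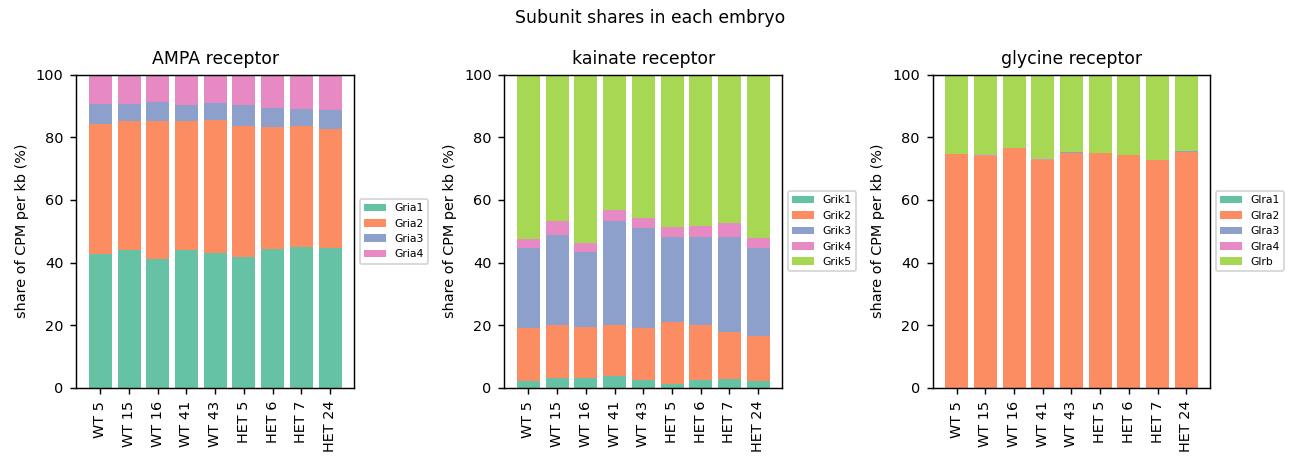
Stacked bars give the share of each subunit in the summed CPM per kb of its family for each embryo, for AMPA, kainate and glycine receptor genes. Each family drawn keeps its leading genes in all 9 embryos, with Gria1 and Gria2, Grik5 and Glra2 at the largest shares, while the Gria4 share is slightly larger in the 4 HET embryos.

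Genes that act with these receptors were read from 8 lists by role, 80 of whose 83 genes were tested. Of these 80, 0 were called by edgeR, and at an unadjusted p under 0.05 4 were higher and 2 lower. Over all tested genes these shares were 0.140% called, 2.32% higher and 3.09% lower. The count of 4 higher among 80 lies above its background share, and the count of 2 lower lies near its own. Neither count was tested, and the genes named next are given as values only. Of the 16 AMPA auxiliary subunits, Cacng5 had 12 ± 2.45 CPM in WT and 17.5 ± 3.53 in HET (log2 difference 0.54 ± 0.17; edgeR, adjusted p = 0.788) and Cacng4 had 121.7 ± 14.1 and 142.4 ± 14.7 (0.23 ± 0.10; edgeR, adjusted p = 0.911). Both encode transmembrane AMPA receptor regulatory proteins. Among 6 tested partners of kainate and delta receptors, the kainate auxiliary subunit Neto1 had 39.0 ± 12.4 CPM in WT and 23.1 ± 8.68 in HET (log2 difference −0.76 ± 0.27; edgeR, adjusted p = 0.907), while Neto2, at 172.4 ± 15.5 and 171.0 ± 20.6, had a difference of −0.01. Among 16 inhibitory scaffold and GABA-A assembly genes, Insyn1 had 35.9 ± 3.03 CPM in WT and 41.1 ± 1.5 in HET (0.20 ± 0.07; edgeR, adjusted p = 0.907). Its groups only just did not overlap, with WT 5 at 39.7 CPM and HET 24 at 39.8. Of all tested genes, 1.85% had groups that did not overlap. The adhesion protein gene Nlgn2 of the same list had 231.2 ± 29.3 and 270.4 ± 27.5 CPM (0.23 ± 0.10; edgeR, adjusted p = 0.911). The 5 embryos low in choroid plexus markers were WT 5 and WT 43 and HET 5, HET 6 and HET 7. Within them the log2 differences were 0.67 for Cacng5, 0.03 for Nlgn2, 0.09 for Insyn1, 0.11 for Cacng4 and −0.47 for Neto1.

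The 16 excitatory scaffold genes, 7 tested metabotropic partners, 4 GABA-B partners and 4 chloride transporters held 0 genes with an unadjusted p under 0.05. Median log2 fold changes over the 8 lists lay between −0.04 and 0.12 except for 0.18 over the 4 GABA-B partners. Slc12a2, the importer that raises intracellular chloride, exceeded the exporter gene Slc12a5 per kb by 4.64 ± 1.76 times in WT and 4.0 ± 2.83 times in HET, with ranges of 3.35 to 7.30 and 1.69 to 8.13.

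The levels of cell type markers were compared by list. Each list's sum was tested by exact permutation of the embryos (two-sided) and adjusted over 10 lists, where 0.0159 is the smallest p that 5 against 4 embryos allow. A single list at that p would have an adjusted p of 0.159, and at least 4 lists would have to reach it to pass 0.05, so the adjusted values cannot show that lists did not differ. Endothelial markers summed to 132.3 ± 14.4 CPM in WT and 115.3 ± 4.70 in HET (exact p = 0.0317, adjusted 0.317). Radial glia markers summed to 2724.5 ± 246.1 and 2328.9 ± 238.1 CPM (exact p = 0.0794, adjusted 0.397). Of this list Fabp7, a fatty acid binding protein gene, was called lower in HET, at 618.5 ± 81.5 CPM in WT and 341.5 ± 51.3 in HET (log2 difference −0.86 ± 0.12; edgeR, adjusted p = 0.0223), while Nes and Pax6 had differences of 0.04 and 0.12. Choroid plexus markers summed to 1619.1 ± 1466.1 and 160.0 ± 248.3 CPM (exact p = 0.206, adjusted 0.688). The pan-neuronal, excitatory cortical, GABAergic, astrocyte, oligodendrocyte, microglial and thalamic lists had exact p values of 0.524 to 0.984. The astrocyte sum was set mostly by its abundant genes, and of 7 tested 4 were lower in HET and 3 higher. Aqp4 was at 1.48 ± 0.317 CPM in WT and 0.475 ± 0.415 in HET (log2 difference −1.63, edgeR, adjusted p = 0.555). Aldh1l1 was at 22.1 ± 6.71 and 9.89 ± 6.47 CPM (−1.16, edgeR, adjusted p = 0.904). When the fit included a choroid plexus covariate, 0 members were called, 35 had a positive sign and their median was 0.24.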

How the data were processed

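Counts of reads per gene were used as deposited for 5 WT and 4 HET embryos, 1 column each. The authors captured poly(A) RNA, made TruSeq libraries, aligned 1 read of each pair to GRCm38.p6 with STAR 2.7.9a and counted with featureCounts on GENCODE annotation; strand and multimapping settings are not given in the sources used here. No column was left unmapped and no pair of samples had identical counts. Sample titles give a genotype and a number, each read here as 1 embryo, and they name no litter. Total counts were 42640218 to 62830060.

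Genes were filtered with filterByExpr (minimum count 10), scaled by TMM and compared with edgeR 4.0.16 quasi-likelihood tests in R 4.3.3 over all 9 embryos, with Benjamini-Hochberg adjustment over 17818 genes. limma 3.58.1 and DESeq2 1.42.0 were alternatives. The test was checked on simulated data, with counts drawn for each gene on its own. Shifts shared by many genes in an embryo were not part of that check. Levels per kb used the summed exon length of GENCODE M21, an earlier release than the one the paper names for its counts. Exon lengths may therefore differ from those counted. Marker lists were compared with scipy 1.17.1. The members and lists were chosen with earlier results of these data known. Genes described in full were members with an unadjusted p under 0.05 or groups that do not overlap, the highest member per kb of each class, and list genes with an unadjusted p under 0.05; Gria2, Gria4 and other members in addition are given by level. Results of 5 members and 1 list gene are not reported here by name, though the counts and medians include them.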

Additional observations from a re-analysis of the deposited data

Results flagged for a closer look

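Among 76 groups examined, a WT and a HET group for each receptor gene, 1 sample stood apart by Dixon's criterion, which chance meets in about 1 in 20 groups. Grm4, a group III metabotropic receptor gene, was at 5.20 CPM in HET 5, whereas the other 3 HET embryos were at 10.5 to 11.3 CPM. WT embryos ranged from 4.24 to 9.33 CPM at Grm4, so the value of HET 5 lies within the WT range.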

How the results depend on the processing

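Under all 19 alternatives 0 receptor members and 0 list genes were called. All genes called were 25, and were 85 with DESeq2, 15 in embryos with low choroid plexus markers, 14 without both WT 16 and HET 7 (chosen after seeing the data) and 14 to 23 when 1 embryo was left out. Members with an unadjusted p under 0.05 numbered 2, and were 5 with DESeq2, 4 with the choroid plexus covariate, 1 with upper-quartile scaling or a length offset, 0 without both embryos, and 0 to 8 with 1 embryo left out (0 without WT 43 or HET 7, 8 without HET 5). Members higher in HET numbered 23 to 35 with 1 embryo left out and 16 without both. The members' median log2 fold change was 0.04 to 0.28 with 1 embryo left out, 0.31 in the low choroid plexus embryos and −0.04 without both. The cause of these shifts was not tested.

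Of 342 values of 18 named genes under alternatives, 12 changed sign, all of genes that were not called. Without both embryos the log2 differences were −0.06 for Gria1, −0.04 for Grid1, −0.13 for Grm5 and −0.01 for Gabbr1. In the low choroid plexus embryos they were −0.07 for Grik5, −0.09 for Grm2 and 0.05 for Glra2, and with the covariate 0.01 for Glra2. With 1 embryo left out they ranged from −0.00 to 0.26 for Grid1, −0.03 to 0.41 for Grm5 and −0.21 to 0.08 for Gabrd. Without division by length, WT shares were 63.6% for Gria2, 62.2% for Gabra2, 32.7% for Grik5 and 33.4% for Grik3. No paired analysis was possible because the sample titles name no litter. The paper states that WT controls were littermates, so litters shared between the genotypes could not be modelled.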
